A study of Mus musculus with 9 samples.

Results

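Fatty acid oxidation and acyl-CoA thioesterase genes were followed in mouse podocytes, the epithelial cells whose foot processes cover the capillaries of the renal glomerulus. The 10 genes were taken by symbol from the table of the series, which holds 23309 gene symbols: Cpt1a, Cpt2, Acadvl, Acadl, Acadm, Echs1, Hadha, Hadhb, Ppara and Acot13. Each was found, and each passed the filter on low values (1 FPKM or more in 3 or more of the 9 libraries), as did 9788 symbols in all. FPKM is the number of fragments scaled to transcript length and to mapped fragments, so levels can be set side by side between genes. The series concerns podocyte injury, and its title names WT1 and a repair response. All libraries came from mice listed as wildtype and aged 7 to 8 weeks that carry the mTmG reporter and a Cre driven in podocytes. Cells with an active Cre switch their reporter to green fluorescent protein, and RNA came from the GFP-positive cells. The control group was given PBS (3 libraries), and the other groups were taken 9 days (ADR_D9, 3 libraries) and 14 days (ADR_D14, 3 libraries) after an injection that the labels abbreviate as ADR. Whether each library is a separate animal is not stated in the labels, so p-values measure the spread between libraries, which may be partly technical. Y-linked transcripts, given later, differed between libraries within both ADR groups, so those libraries did not all come from the same mice.

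Mitochondrial beta-oxidation shortens fatty acids to acetyl-CoA in repeated rounds. Long chains enter the organelle as carnitine esters, made at the outer membrane by Cpt1a and turned back to acyl-CoA at the inner membrane by Cpt2. Acyl-CoA dehydrogenases for very long (Acadvl), long (Acadl) and medium (Acadm) chains start each round, passing electrons to the flavoprotein made by Etfa and Etfb. For medium and short chains Echs1 adds water, while long chains go to the mitochondrial trifunctional protein, a complex of alpha subunits (Hadha) and beta subunits (Hadhb). Ppara encodes a nuclear receptor that induces many of these genes in liver, heart and kidney tubule. Acot13 encodes an acyl-CoA thioesterase, which splits acyl-CoA into free fatty acid and coenzyme A.

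Hadha and Hadhb are neighbours that point away from each other, and the RefSeq table (GRCm38.p6) puts their starts 273 bases apart on chromosome 5. The stretch between both starts is shown because the ratio of these 2 genes on day 14 lay apart from that in the other groups, as described later. It is chr5:30154981-30155252 on the plus strand, written in the direction of Hadhb, with Hadha starting before its first base on the other strand. Capitals mark the GC boxes (GGGCGG) read on this strand.
Hadha-Hadhb: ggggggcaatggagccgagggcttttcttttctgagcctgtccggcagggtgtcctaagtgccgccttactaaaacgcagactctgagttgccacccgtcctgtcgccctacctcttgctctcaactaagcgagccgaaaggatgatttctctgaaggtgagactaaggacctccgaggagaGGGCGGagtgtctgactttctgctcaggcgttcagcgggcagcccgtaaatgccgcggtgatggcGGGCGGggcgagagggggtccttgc

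The table holds a promoter window for 9 of the 10 genes, Acot13 being the exception. In the 250 bases before each start, both strands were searched for AGGTCA, the half-site that nuclear receptors such as PPAR and the estrogen-related receptors read. It stood before 4 of the 9 genes (Acadm, Acadvl, Cpt1a and Echs1) and in 14% of all 32851 windows. Of these genes only Cpt1a passed a test of expression in the comparisons that follow. The 60 bases around each match are shown in the direction of the gene, all on GRCm38.p6, with the half-site or its complement TGACCT in capitals. They lie at chr3:153944834-153944893 (minus strand, Acadm), chr7:140116472-140116531 (minus strand, Echs1), chr11:70015483-70015542 (minus strand, Acadvl) and chr19:3323180-3323239 (plus strand, Cpt1a).
Acadm: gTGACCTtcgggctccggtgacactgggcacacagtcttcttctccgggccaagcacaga
Echs1: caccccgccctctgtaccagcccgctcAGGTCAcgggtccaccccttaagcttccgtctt
Acadvl: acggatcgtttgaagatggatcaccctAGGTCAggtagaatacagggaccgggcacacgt
Cpt1a: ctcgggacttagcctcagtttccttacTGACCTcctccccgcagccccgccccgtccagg

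The longer form AAGGTCA, which contains the half-site, was found before Acadm at the same place and in 4.08% of all windows. A direct repeat of AGGTCA with any 1 base between both copies, the element of PPAR with RXR, was found before none of the 9 genes and in 0.0335% of all windows. CCAAT stood before Cpt1a (33.8% of all windows), the NRF1 palindrome (GCGCA directly followed by its complement TGCGC) before Ppara (0.782%) and the ETS core CCGGAAG before Cpt2 (6.91%). The GC box GGGCGG stood before 7 of the 9 genes, all but Acadm and Acadvl, and in 32.7% of all windows. This motif was added after the stretch between Hadha and Hadhb was seen, so its count is no test. The box at bases 183 to 188 of that stretch was counted for both genes. These matches describe letters only.

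Some libraries stood apart. In ADR_D14 replicate 1, 18 of 20 proximal tubule markers had 1 FPKM or more and over 4 times the level of every PBS library. Their sum was 4034 FPKM there, 49.9 to 71.0 with PBS, 128 to 280 on day 9, and 45.9 and 19.1 in ADR_D14 replicates 2 and 3. Slc5a2, the glucose transporter of the proximal tubule, was listed at 0 in those latter libraries, and Kap at 0 in every library except ADR_D14 replicate 1. For the distal tubule, the loop of Henle and the collecting duct, 14 of 15 markers passed that bound in ADR_D14 replicate 1 (13434 FPKM summed, 11.2 to 47.4 with PBS) and 12 of 15 in ADR_D9 replicate 3 (800 FPKM). Endothelial markers (14 of 15 in both libraries, with sums of 977 and 3710 FPKM against 446 to 552 with PBS) and leukocyte markers (10 and 11 of 16) also stood out in ADR_D14 replicate 1 and ADR_D9 replicate 3. Mesangial and smooth muscle markers did so in ADR_D9 replicate 3 (7 of 12), and red cell markers summed to 548 FPKM in ADR_D9 replicate 1 (2 of 8 over the bound), 248 in ADR_D9 replicate 3 (4 of 8) and 66.5 in ADR_D14 replicate 1 (3 of 8), against at most 5.45 with PBS. Of the endothelial sums with PBS, Cldn5 alone made up 439 to 548 FPKM. It was at 166 FPKM in ADR_D14 replicate 1 and 362 FPKM in ADR_D9 replicate 3. The 15 podocyte markers summed to 10887 to 14725 FPKM with PBS and 11069 to 17563 on day 9. On day 14 they summed to 3417, 11352 and 12733 FPKM in replicates 1, 2 and 3, with Lmx1b listed at 0 in replicate 1. The 4 Y-linked transcripts summed to 53.6 to 70.5 FPKM in the PBS group, ADR_D9 replicate 1 and ADR_D14 replicate 2 and to at most 1.06 FPKM in the other 4 libraries. Libraries low in them were all from ADR groups, so these transcripts and the group are partly confounded. Relative depth, estimated from low values with PBS replicate 2 as 1, was 0.239, 0.460 and 0.569 on day 14 and 0.786 to 1.09 elsewhere, and since read counts were not used here no counting interval can be given. In such samples fewer cells of a type and less RNA per cell cannot be told apart.

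With PBS, the medium-chain dehydrogenase Acadm was the most abundant of the 10 genes, at 252 ± 17.5 FPKM (mean ± SD, n = 3). The very-long-chain enzyme Acadvl followed at 70.1 ± 4.38 FPKM. The subunits Hadha (32.8 ± 10.7 FPKM) and Hadhb (31.7 ± 2.09 FPKM) overlapped in their libraries. Cpt1a (25.1 ± 3.88 FPKM), Acadl (23.0 ± 2.79 FPKM) and Acot13 (19.6 ± 4.0 FPKM) each overlapped with its neighbour in this order. Echs1 (7.28 ± 0.116 FPKM) overlapped with Cpt2 (5.24 ± 2.0 FPKM), and the receptor gene Ppara was the lowest, at 1.16 ± 0.404 FPKM. On day 14 Acadm still led at 288 ± 15.3 FPKM, and Acot13 stood second by its mean, at 155 ± 147 FPKM. Among neighbours in the day 14 order, only Cpt1a (9.26 ± 5.04 FPKM) and Ppara (1.34 ± 0.265 FPKM) did not overlap.

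**Figure D1:**
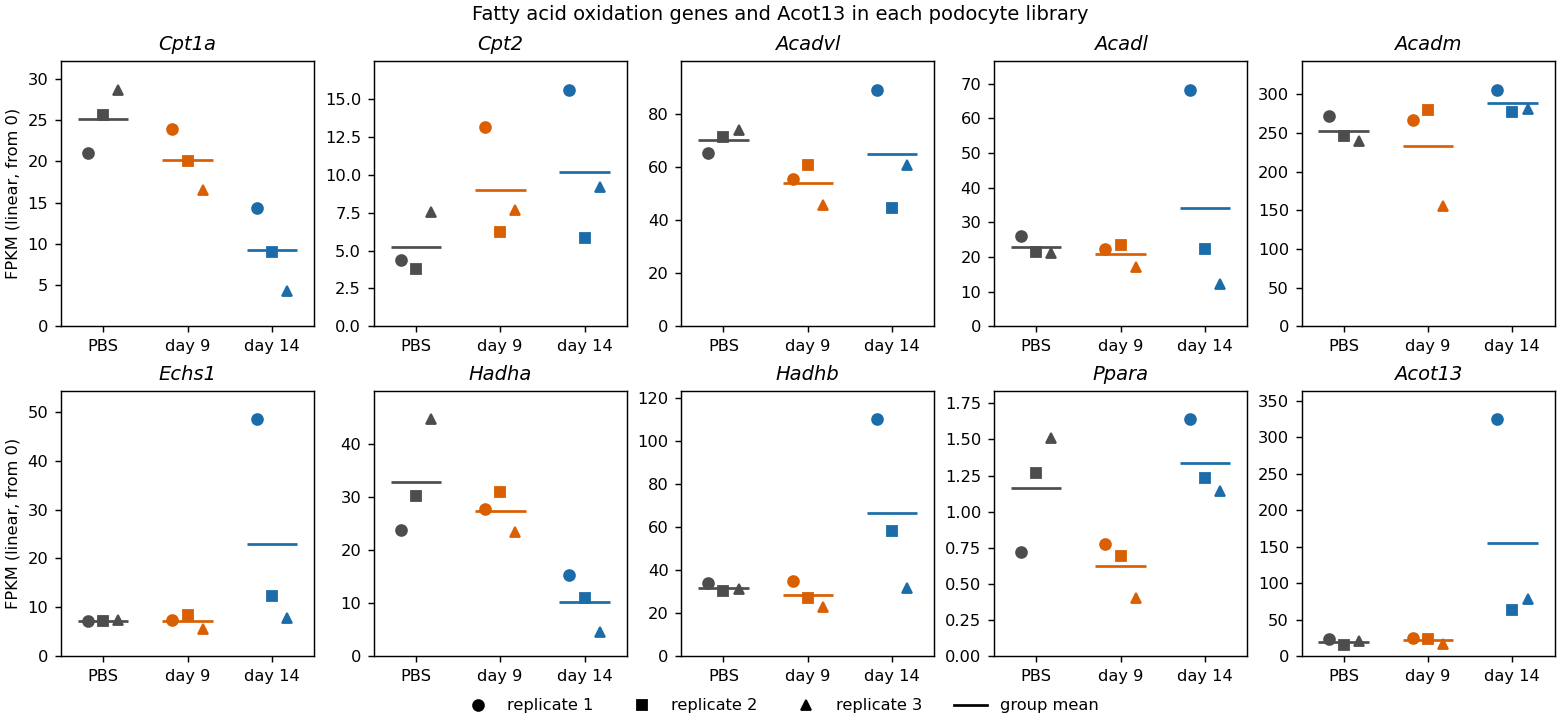
FPKM of the 10 genes (vertical axes, linear from 0) in each library of the PBS, day 9 and day 14 groups. Points are single libraries, with a marker shape for each replicate number, and lines are group means; Acot13 lies between 62.6 and 325 FPKM on day 14 and at most at 24.3 FPKM before, and Hadha at most at 15.3 FPKM on day 14 and at least at 23.4 FPKM before.

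On day 9, no gene of the 10 passed the test against PBS. The test was limma on log2(FPKM + 1) over all 9 libraries, and a gene passed with a Benjamini-Hochberg adjusted p under 0.05 over the 9788 genes tested. It called 0% of all genes in this comparison (304 genes had an unadjusted p under 0.05, none of the 10 among them), and limma without a variance trend also called none. Changes are given as log2 of FPKM + 1 relative to the median gene tested, a scale that understates the change of low genes. Each SE and p comes from the test of the change as deposited, before the change of the median gene was subtracted. The median gene moved by 0.04 on day 9 against PBS, by −0.15 on day 14 against PBS and by −0.22 on day 14 against day 9. On day 9 the changes of the 10 genes lay between −0.44 (Ppara) and 0.63 (Cpt2), with a median of −0.21. The spread of each gene was estimated from all 9 libraries, so each day 9 SE also takes in the spread of the day 14 libraries. With only the groups compared in the fit, none of the 10 passed on day 9 either, and 0.0102% of all genes did.

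Acadvl was at 65.3, 71.1 and 73.9 FPKM with PBS (replicates 1, 2 and 3 here and throughout), at 55.6, 60.6 and 45.5 FPKM on day 9 and at 89.1, 44.7 and 60.6 FPKM on day 14. Its day 9 libraries all lay below the PBS libraries, the only such gap of the 10 genes in that comparison (6.63% of all genes tested lay wholly lower and 6.77% wholly higher on day 9). The log2 change of −0.42 ± 0.27 (SE) did not pass. On day 14 its libraries lay on both sides of PBS, and its log2 change was −0.02 ± 0.27.

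On day 14, 3 of the 10 genes passed against PBS: Acot13 rose, while Cpt1a and Hadha fell. Of all genes tested, 17.1% passed (6.32% higher and 10.7% lower), so that 3 of 10 stands beside 17.1%. The split over all genes moved with the scaling, from 619 higher and 1051 lower as deposited to 818 and 773 under median-of-ratios scaling, 710 and 755 under quantile normalization and 414 and 1679 at a common total. Groups did not overlap for 3 genes that lay higher (Acot13, Acadm and Echs1) and 2 that lay lower (Cpt1a and Hadha), beside 15.6% of all genes higher and 23.8% lower. The median log2 change of the 10 genes was 0.35, with 7 of them above the median gene. The other 7 genes, among them Hadhb and the 3 dehydrogenases, did not pass.

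**Figure D2:**
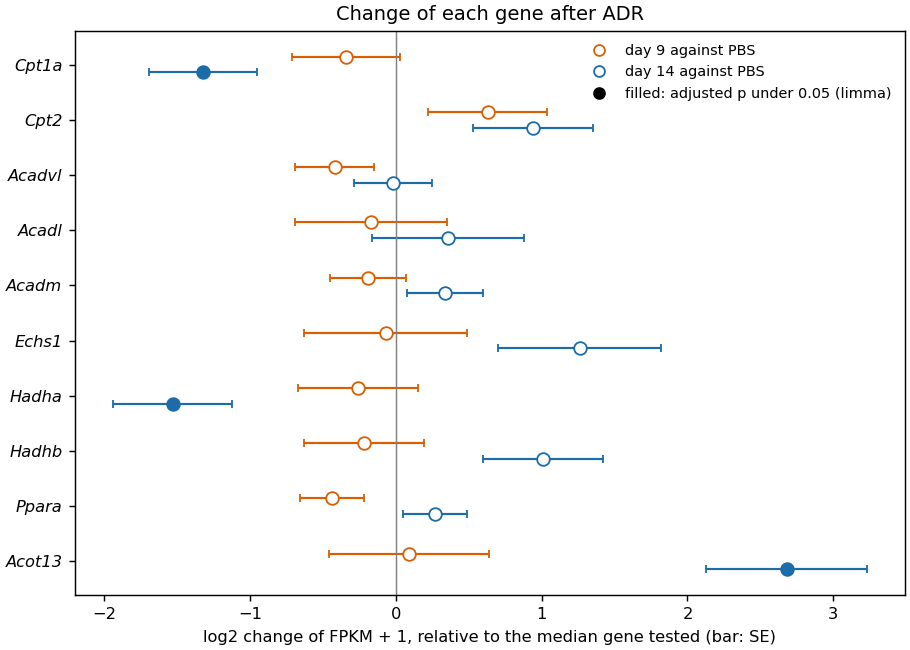
Log2 change of FPKM + 1 relative to the median gene tested (horizontal axis) for each of the 10 genes, on day 9 (orange) and day 14 (blue) against PBS. Bars are standard errors from limma and filled points passed the test; on day 14 Acot13 lies at 2.68, Hadha at −1.53 and Cpt1a at −1.32, and no day 9 point is filled.

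Cpt1a, which makes the carnitine esters at the outer membrane, was at 21, 25.6 and 28.7 FPKM with PBS, at 23.9, 20.0 and 16.5 FPKM on day 9 and at 14.4, 9.02 and 4.34 FPKM on day 14. Each day 14 library lay below all PBS and day 9 libraries, while day 9 overlapped with PBS. The day 14 log2 change was −1.32 ± 0.37 (SE, limma, adjusted p = 0.0320), and against day 9 it was −0.94 ± 0.37, which did not pass (adjusted p = 0.0660). Without ADR_D9 replicate 3 and ADR_D14 replicate 1, the libraries high in markers of other cells, the change against PBS was −1.65 (limma, adjusted p = 0.0144) and that against day 9 was −1.46, now past the threshold (limma, adjusted p = 0.0311).

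Cpt2, the inner membrane partner, was at 4.39, 3.81 and 7.52 FPKM with PBS, at 13.1, 6.24 and 7.68 FPKM on day 9 and at 15.6, 5.85 and 9.15 FPKM on day 14. The groups overlapped, with the highest library of each ADR group in replicate 1. Its log2 change was 0.63 ± 0.41 on day 9 and 0.94 ± 0.41 on day 14 (limma, adjusted p = 0.206), and neither passed. The ratio of Cpt1a to Cpt2 within a library, which no scaling of libraries alters, was 4.77, 6.71 and 3.81 with PBS, 1.83, 3.20 and 2.15 on day 9, and 0.925, 1.54 and 0.475 on day 14. Neither step overlapped. The pair was chosen with its values known, and the ratio is given with no test.

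The other genes of the carnitine shuttle and of acyl-CoA activation followed no single course on day 14. Of 12 listed genes 10 were tested, with a median log2 change of −0.44. Beside 6.32% of all genes tested higher and 10.7% lower, none of them passed higher and 3 passed lower. Beside Cpt1a these were the acyl-CoA synthetases Acsl4 and Acsl6, which join fatty acids to coenzyme A. Acsl4 was at 13.4, 16.8 and 20.5 FPKM in the PBS libraries and at 1.61, 7.21 and 5.36 FPKM on day 14 (log2 change −1.63 ± 0.42, limma, adjusted p = 0.0255), a call lost under quantile normalization (limma, adjusted p = 0.0512) and with the length and GC trend removed (limma, adjusted p = 0.0577). Acsl6 was at 1.39, 0.960 and 1.42 FPKM in the PBS libraries and at 0.0617, 0.545 and 0.0259 FPKM on day 14 (log2 change −0.77 ± 0.22, limma, adjusted p = 0.0270), a call lost under quantile normalization (−0.49, limma, adjusted p = 0.177) and with the length and GC trend removed (−0.57, limma, adjusted p = 0.165). Both lay below PBS in every day 14 library. Slc25a20, the carnitine-acylcarnitine carrier of the inner membrane, had 46.6 to 53.0 FPKM with PBS and 58.2 to 65.7 on day 14, with a log2 change of 0.42 ± 0.24 that did not pass. It fell outside the rule for naming and was chosen after its values were seen.

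Acadm was at 272, 246 and 239 FPKM with PBS, at 266, 279 and 155 FPKM on day 9 and at 306, 277 and 281 FPKM on day 14. Its day 14 libraries all lay above PBS, and its lowest library was ADR_D9 replicate 3. The day 14 log2 change of 0.34 ± 0.26 did not pass (limma, adjusted p = 0.625). Acadl was at 26.2, 21.6 and 21.2 FPKM with PBS, at 22.3, 23.5 and 17.1 FPKM on day 9 and at 68.3, 22.3 and 12.1 FPKM on day 14. Its day 14 libraries held both its highest and its lowest value. The log2 change on day 14 was 0.36 ± 0.52, and without ADR_D9 replicate 3 and ADR_D14 replicate 1 it was −0.29, neither past the threshold.

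The long-chain to medium-chain ratio of Acadl to Acadm was 0.0964, 0.0878 and 0.0889 with PBS and 0.0836, 0.0840 and 0.111 on day 9. On day 14 it was 0.224, 0.0803 and 0.0430, again both the highest and the lowest values. Its highest value was in ADR_D14 replicate 1, the library with the highest tubule markers. The part of those cells in the value was not tested.

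Echs1, the enoyl-CoA hydratase, was at 7.28, 7.17 and 7.40 FPKM with PBS, at 7.47, 8.49 and 5.55 FPKM on day 9 and at 48.5, 12.4 and 7.70 FPKM on day 14. Each day 14 library lay above all PBS libraries, replicate 3 by little. The log2 change of 1.26 ± 0.56 did not pass (limma, adjusted p = 0.191), and without ADR_D14 replicate 1 it was 0.55.

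Hadha, the trifunctional alpha subunit that carries the hydratase and dehydrogenase steps, was at 23.8, 30.1 and 44.6 FPKM with PBS, at 27.6, 30.8 and 23.4 FPKM on day 9 and at 15.3, 11.0 and 4.53 FPKM on day 14. Every day 14 library lay below every other library. The log2 change was −1.53 ± 0.41 against PBS (limma, adjusted p = 0.0271) and −1.24 ± 0.41 against day 9 (limma, adjusted p = 0.0440). Without ADR_D9 replicate 3 and ADR_D14 replicate 1 both changes were larger, at −1.84 against PBS (limma, adjusted p = 0.0182) and −1.71 against day 9 (limma, adjusted p = 0.0357).

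Hadhb, the beta subunit with the thiolase step, was at 34.1, 30.0 and 31.2 FPKM with PBS, at 35.1, 27 and 22.6 FPKM on day 9 and at 110, 58.0 and 31.4 FPKM on day 14. Replicates 1 and 2 of day 14 lay above every PBS library, and replicate 3 lay among them. The log2 change was 1.01 ± 0.41 against PBS (limma, adjusted p = 0.167) and 1.27 ± 0.41 against day 9 (limma, adjusted p = 0.106), neither past the threshold.

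The ratio of Hadha to Hadhb was 0.699, 1.0 and 1.43 with PBS and 0.786, 1.14 and 1.04 on day 9. It was 0.139, 0.189 and 0.144 on day 14. All 3 day 14 libraries lay below the others and did not overlap with them. The part of other cells in this ratio was not tested. This pair shares the stretch printed earlier, and it too was chosen with its values known, so no test is given. A ratio within a library shows unequal change and not which gene of the pair moved. The longest annotated transcripts (GENCODE M21) have similar lengths, 4017 bases for Hadha and 4388 for Hadhb, and differ in GC content, at 51.3% and 39.1%.

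**Figure D3:**
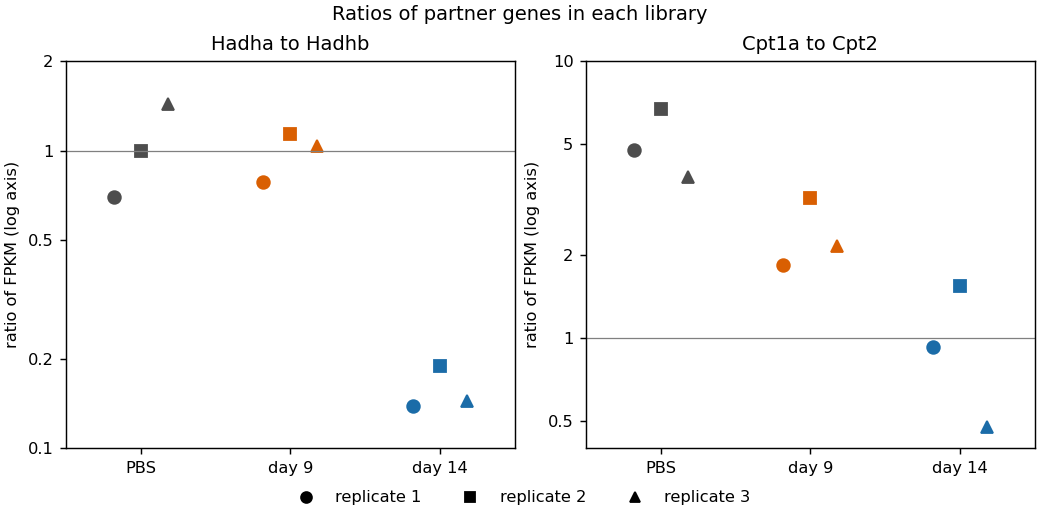
Ratio of FPKM (vertical log axes) of Hadha to Hadhb and of Cpt1a to Cpt2 in each library of the PBS, day 9 and day 14 groups. Each point is a library; the Hadha to Hadhb ratio lies between 0.139 and 0.189 on day 14 and between 0.699 and 1.43 in the other groups, and the Cpt1a to Cpt2 ratio does not overlap between any groups.

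Among the mitochondrial beta-oxidation enzymes, 18 of 20 listed genes were tested. On day 14 against PBS 1 passed higher and 1 lower, beside 6.32% and 10.7% of all genes tested. The median log2 change was 0.49, and 13 of the 18 lay above the median gene. Groups did not overlap for 6 genes of the list that lay higher and 2 that lay lower, beside 15.6% and 23.8% of all genes. Acadl and Acad11 lay above every PBS library only in ADR_D14 replicate 1, the library with the highest tubule markers. Acad11 was chosen after its values were seen. The gene that passed higher was Etfb, a subunit of the electron transfer flavoprotein that takes electrons from the dehydrogenases, and Hadha passed lower. Etfb was at 78.0, 55.3 and 81.8 FPKM with PBS, at 87.0, 72.2 and 52.5 FPKM on day 9 and at 702, 197 and 160 FPKM on day 14. All day 14 libraries lay above the others, replicate 1 the furthest. Its log2 change was 2.12 ± 0.51 (limma, adjusted p = 0.0334), and 1.49 without ADR_D9 replicate 3 and ADR_D14 replicate 1 (limma, adjusted p = 0.0166). The Etfb call was lost under quantile normalization (1.84, limma, adjusted p = 0.0502) and with the length and GC trend removed (1.60, limma, adjusted p = 0.0679). Acaa2, the thiolase of shorter chains, was at 10.3, 6.47 and 6.08 FPKM in the PBS libraries and at 158, 26.6 and 16.5 FPKM on day 14, a log2 change of 2.48 ± 0.70 that did not pass (limma, adjusted p = 0.0516). Acaa2 was chosen after its values were seen.

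Acot13 had the largest change of the 10 genes. It was at 23.0, 15.2 and 20.6 FPKM with PBS, at 24.3, 23.1 and 16.9 FPKM on day 9 and at 325, 62.6 and 78.1 FPKM on day 14. Each day 14 library lay above all PBS and day 9 libraries, and PBS and day 9 overlapped. The log2 change was 2.68 ± 0.55 against PBS (limma, adjusted p = 0.0206) and 2.63 ± 0.55 against day 9 (limma, adjusted p = 0.0247). Without ADR_D9 replicate 3 and ADR_D14 replicate 1 it was 1.97 against PBS (limma, adjusted p = 0.0121) and 1.71 against day 9 (limma, adjusted p = 0.0246). The longest annotated Acot13 transcript is 721 bases, against a median of 3178 bases over the genes tested. Once a trend across transcript length and GC content was taken out of each library, its change against PBS was 1.86 (limma, adjusted p = 0.0622).

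Of the 15 listed thioesterases 8 were tested on day 14 against PBS, and the median log2 change was 0.33. Acot13 passed higher and Acot8 lower, beside 6.32% and 10.7% of all genes tested. Acot8, the peroxisomal thioesterase, was at 51.8, 64.4 and 81.0 FPKM with PBS, at 55.9, 68.2 and 79.3 FPKM on day 9 and at 33.7, 30.7 and 43.5 FPKM on day 14. All day 14 libraries lay below the rest. The log2 change of −0.70 ± 0.25 stood at the threshold (limma, adjusted p = 0.0497) and did not pass under median-of-ratios scaling (limma, adjusted p = 0.0952), quantile normalization (limma, adjusted p = 0.0593) or without ADR_D9 replicate 3 and ADR_D14 replicate 1 (limma, adjusted p = 0.0692). The mitochondrial thioesterase Acot9, chosen after its values were seen, was at 90.8 to 101 FPKM in the PBS libraries and at 16.5, 44.1 and 62.3 FPKM on day 14 (log2 change −1.24 ± 0.42, limma, adjusted p = 0.0520). Paralogs such as Acot1 and Acot2 are near-identical, and how shared reads were counted is not given in the sources used here.

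Ppara was low throughout, at 0.719, 1.27 and 1.51 FPKM with PBS, 0.778, 0.693 and 0.399 FPKM on day 9 and 1.64, 1.23 and 1.14 FPKM on day 14. Day 14 lay wholly above day 9 and overlapped with PBS. The log2 change was −0.44 ± 0.22 on day 9, 0.27 ± 0.22 on day 14 (limma, adjusted p = 0.714) and 0.74 ± 0.22 between day 14 and day 9 (limma, adjusted p = 0.124), and none passed. As deposited, the change tested between the days was 0.53. These values lie near the pseudocount of 1, where the scale compresses changes.

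Among regulators of fatty acid oxidation, 13 of 18 genes were tested, with a median log2 change of 0.21 on day 14 against PBS. Of these 1 passed higher and 2 lower, beside 6.32% and 10.7% of all genes tested. The nuclear receptor corepressor Ncor1 was at 8.46, 5.45 and 1.64 FPKM with PBS, at 11.9, 10.5 and 8.10 FPKM on day 9 and at 19.3, 18.1 and 21 FPKM on day 14. Its day 14 libraries lay together above all others (log2 change 2.05 ± 0.43, limma, adjusted p = 0.0231). Esrra, the estrogen-related receptor that drives mitochondrial genes in muscle, was at 33.3, 21.1 and 18.4 FPKM with PBS, at 24.3, 34.5 and 34.1 FPKM on day 9 and at 10.4, 8.98 and 12 FPKM on day 14. All day 14 libraries were the lowest (log2 change −0.96 ± 0.28, limma, adjusted p = 0.0300), though the call was lost under median-of-ratios scaling (limma, adjusted p = 0.0521). The coactivator Ppargc1b had 1.74 to 2.24 FPKM with PBS and 0.443 to 0.843 on day 14 (log2 change −0.66 ± 0.19, limma, adjusted p = 0.0258). That change was −0.20 with the length and GC trend removed (limma, adjusted p = 0.525) and −0.55 under quantile normalization (limma, adjusted p = 0.0872), neither past the threshold.

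Of 14 PPAR-alpha targets outside beta-oxidation only 5 were tested on day 14 against PBS, with a median log2 change of 0.60. In this list 1 passed higher and none lower, beside 6.32% and 10.7% of all genes tested. The gene that passed was Plin2, which coats lipid droplets, at 49.8, 40.1 and 35.9 FPKM with PBS and 115, 77.5 and 134 FPKM on day 14. Its day 14 libraries all lay above PBS (log2 change 1.48 ± 0.26, limma, adjusted p = 0.0155). Cyp4a10 and Cyp4a14, fatty acid hydroxylases of the proximal tubule, were not tested and were chosen after their values were seen. They reached 122 and 58.7 FPKM in ADR_D14 replicate 1, at most 0.0803 FPKM in ADR_D14 replicates 2 and 3, and at most 1.15 FPKM in the other libraries. The tubule markers were high in that same library.

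Of 17 genes of peroxisomal beta-oxidation 14 were tested on day 14 against PBS, and the median log2 change was 0.32. Of these 1 passed higher and 1 lower, beside 6.32% and 10.7% of all genes tested. The thiolase and lipid carrier gene Scp2 was at 64.1, 51.4 and 58.6 FPKM with PBS and 240, 127 and 106 FPKM on day 14 (log2 change 1.48 ± 0.31, limma, adjusted p = 0.0249, and 0.0541 with the length and GC trend removed). The branched-chain oxidase Acox3 was at 11.2, 19.5 and 22.1 FPKM with PBS and 6.40, 3.83 and 2.53 FPKM on day 14 (log2 change −1.69 ± 0.36, limma, adjusted p = 0.0155). Neither pair of groups overlapped.

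In fatty acid synthesis, 10 of 13 genes were tested on day 14 against PBS, with a median log2 change of −0.41. None passed higher and 3 passed lower, beside 6.32% and 10.7% of all genes tested. The lipogenic transcription factor gene Srebf1 was at 35.1, 55.3 and 34.6 FPKM with PBS, at 28.1, 24.3 and 40.8 FPKM on day 9 and at 5.68, 9.08 and 5.14 FPKM on day 14. Its day 14 libraries lay far below the rest (log2 change −2.34 ± 0.31, limma, adjusted p = 0.00994). The desaturase Scd2 (−1.12 ± 0.34, limma, adjusted p = 0.0368) and the elongase Elovl6 (−0.68 ± 0.24, limma, adjusted p = 0.0448) were lower too, and both calls were lost under median-of-ratios scaling (limma, adjusted p = 0.0538 and 0.0660) and with the length and GC trend removed (limma, adjusted p = 0.142 and 0.192), and that of Elovl6 under quantile normalization too (limma, adjusted p = 0.0902). Of 15 genes of uptake, storage and lipolysis 14 were tested on day 14 against PBS and none passed, beside 17.1% of all genes tested. Of the 14, 2 had an unadjusted p under 0.05 by limma, beside 3348 of all 9788 genes, and the median log2 change was 0.38.

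Across the 8 lists, 82 of 114 genes other than the 10 were tested. On day 14 against PBS 4 passed higher and 9 lower, beside 6.32% and 10.7% of all genes tested. On day 9 none passed against PBS (4 had an unadjusted p under 0.05 by limma). Without ADR_D9 replicate 3 and ADR_D14 replicate 1 the day 14 count was 19 in all, against 13 with every library. In that fit the share of all genes tested that passed rose as well, to 22.1% from 17.1%. Each of the 13 passed again in that fit except Acot8 and Scd2 (limma, adjusted p = 0.0510 for Scd2).

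**Figure D4:**
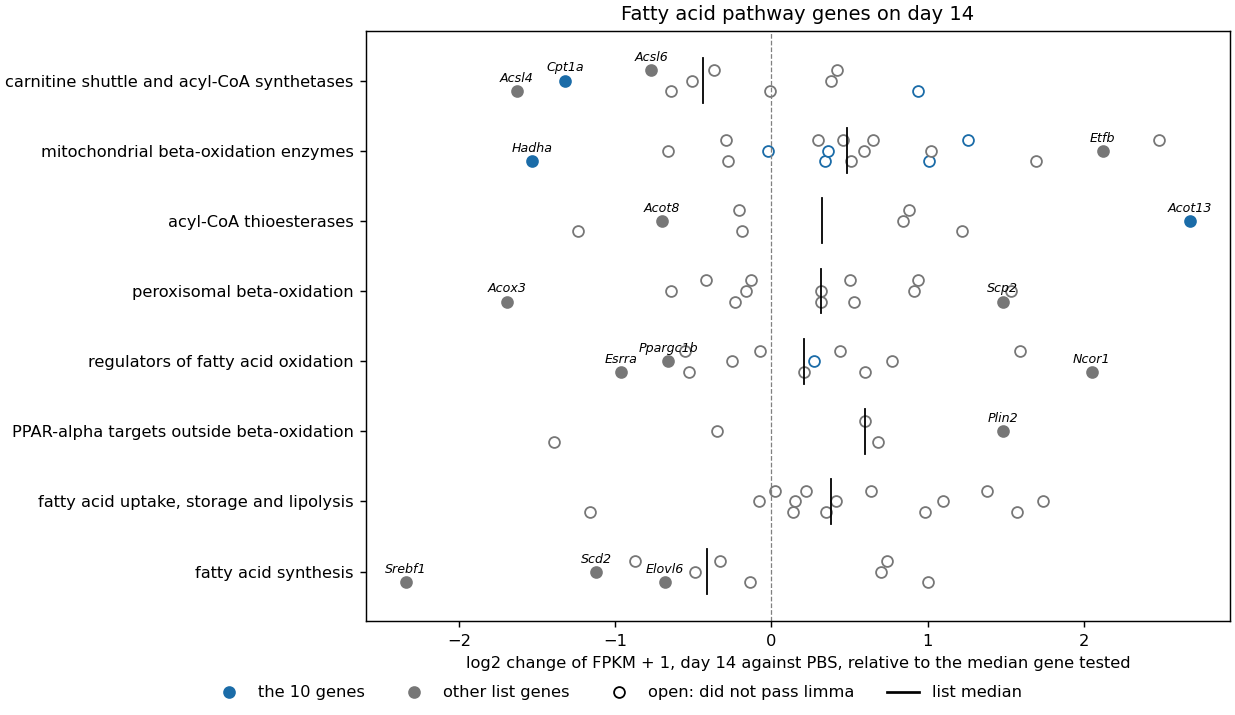
Log2 change of FPKM + 1 on day 14 against PBS, relative to the median gene tested (horizontal axis), for the tested genes of 8 fatty acid pathway lists (rows), with the 10 genes in blue and others in grey. Filled points passed limma and are named, black ticks are list medians; list medians run from −0.44 to 0.60, and calls stand on both sides of 0.

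Between day 14 and day 9, Hadha passed lower and Acot13 higher, 2 of 10 genes beside 15.7% of all genes tested (5.71% higher and 9.98% lower). Ppara and Acot13 lay wholly higher and Cpt1a and Hadha wholly lower (13.2% and 24.6% of all genes). The median log2 change of the 10 genes was 0.56, with 8 above the median gene. This comparison shares its day 14 libraries with the one against PBS. The Hadha call was lost under median-of-ratios scaling (limma, adjusted p = 0.0639) and quantile normalization, and of 9 fits with a library left out it passed only without ADR_D14 replicate 1. Acot13 passed in 6 of those 9 fits and failed without ADR_D9 replicate 1, 2 or 3. Among the other list genes, 3 passed higher and 7 lower.

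Changes were also read in each day 14 library. Relative to the PBS mean and the median gene, Acot13 was higher by 4.12, 1.83 and 2.12 on the log2 scale in day 14 replicates 1, 2 and 3. Hadhb was at 1.88, 1.03 and 0.15 and Echs1 at 2.70, 0.87 and 0.23, highest in replicate 1 and lowest in replicate 3. Hadha stood at −0.89, −1.28 and −2.41, and Cpt1a at −0.63, −1.19 and −2.12, again with replicate 3 as the lowest. Replicate 1 was thus the highest of the 3 day 14 libraries in each of the 10 genes. It was also the library with the lowest relative depth and the highest tubule markers, and the part of either in these values was not tested. Cpt1a and Hadha were lowest in replicate 3, where proximal tubule markers summed to 19.1 FPKM.

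**Figure D5:**
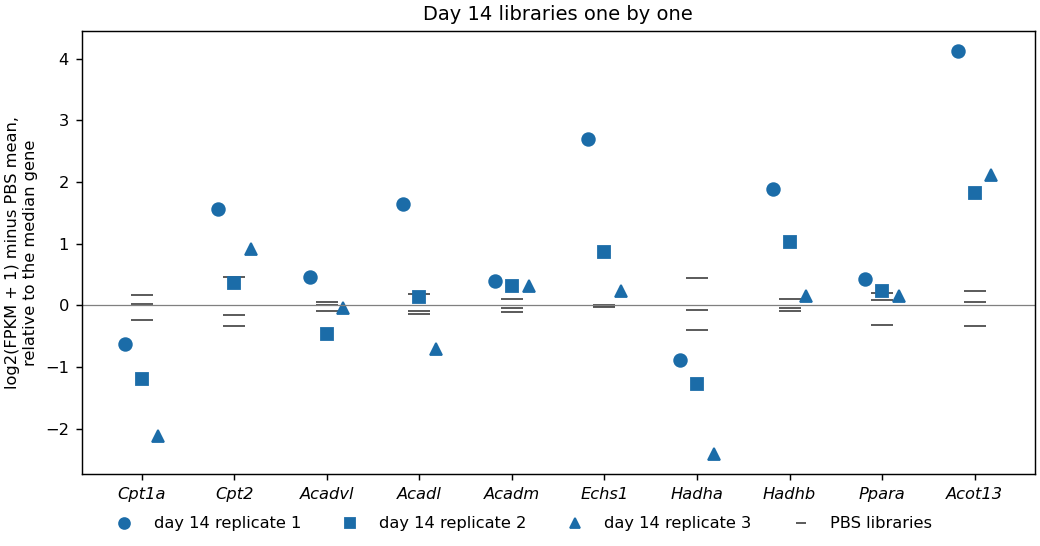
Log2(FPKM + 1) of each day 14 library minus the PBS mean, relative to the median gene (vertical axis), for the 10 genes; black ticks are the PBS libraries. Replicate 1 is the highest day 14 library for every gene, and Hadha and Cpt1a lie below 0 and Acot13 above 0 in all 3.

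Patterns over the 9 libraries were compared by the root mean square difference between centred log2(FPKM + 1) profiles, among tested genes with a mean of at least 5 FPKM. The 3 genes most like Hadha were Peli3 (0.15), Cpt1a (0.20) and Nfic (0.26). Those most like Cpt1a were Supt5 (0.19), Peli3 (0.20) and Hadha (0.20). Peli3 was at 7.24, 9.54 and 13.2 FPKM with PBS and 4.28, 3.23 and 1.34 FPKM on day 14. Hadhb, the partner of Hadha, was most like Tceal8 (0.12), Tpi1 (0.13) and Lcmt1 (0.15).

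Acot13 was most like Atp5g1 (0.20), Atp5l (0.21) and Ndufb11 (0.22). Atp5g1 and Atp5l encode ATP synthase subunits and Ndufb11 a subunit of respiratory complex I. Atp5g1 was at 110, 84.8 and 113 FPKM in the PBS libraries and at 1351, 256 and 263 FPKM on day 14, so that replicate 1 led there as well. Echs1 was most like Akr1a1 (0.14), Dhrs1 (0.16) and Tprkb (0.16), and Acadm like Cers2 (0.10), Wdr77 (0.10) and the carnitine carrier Slc25a20 (0.13). All these profiles share the 9 libraries and their depth.

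Limits of the day 14 calls were the following. With a term for Y-linked transcripts, Acot13 (2.39, limma, adjusted p = 0.135), Hadha (−1.30, limma, adjusted p = 0.158) and Cpt1a (−1.04, limma, adjusted p = 0.182) kept their direction against PBS and did not pass, in a fit where 0% of the 9788 genes passed, and with the length and GC trend removed, where 5.98% of all genes passed, Hadha (−1.25, limma, adjusted p = 0.0912) and Cpt1a (−1.0, limma, adjusted p = 0.117) did not pass either. Each library left out in turn, Acot13 and Hadha passed against PBS in 7 of 9 fits, failing without PBS replicate 2 (0% of all genes passed) or PBS replicate 3 (1.53%), and Cpt1a in 3 of 9, those without ADR_D9 replicate 3, ADR_D14 replicate 1 or ADR_D14 replicate 3.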

How the data were processed

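Values are FPKM, deposited by the authors as 1 table with a column per library. Per the labels' protocols, a Ribo-Zero kit removed ribosomal RNA from the total RNA before standard Illumina library steps. Per the submitters' processing notes, Bowtie 0.12.7, Cufflinks and build mm9 were used; not given in the sources used here are the Cufflinks version, annotation, strand setting and handling of shared reads. The table heads its PBS columns as control, and their replicate numbers tied them to the PBS libraries. Of 23309 symbols, 260 stood on more than 1 of the 23813 rows, of which that with the highest mean stayed. Depth is unknown beyond a ratio between libraries taken from values under 0.3 FPKM.

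The two-sided test was limma 3.58.1 in R 4.3.3 (lmFit, then eBayes with trend) fitted to log2(FPKM + 1) of the 9 libraries together, group as the only term and Benjamini-Hochberg adjustment over the 9788 genes that reached 1 FPKM in 3 or more libraries. It used the values as deposited and was tested on simulated data. Genes, pathway lists and marker lists were chosen with earlier results of these data known. Named are the 10 genes, of each list up to 3 genes per comparison and direction with the smallest p among those that passed, and for each of the 10 the 3 genes with the most similar profile, printed for some; exceptions are stated where they occur. The GC box was added to the motifs after the stretch between Hadha and Hadhb was seen. Promoter sequences are RefSeq's, on GRCm38.p6, matched by symbol for 9 of the 10 genes. Lengths and GC content are those of the longest GENCODE M21 transcript, matched for 99.4% of the genes tested. Alternatives were a pseudocount of 0.1, other filters, scalings and variance models, summed rows, only the groups compared, a replicate block, each library left out, both libraries with markers of other cells left out, a term for Y-linked transcripts, a length and GC trend removed and a threshold of 0.1. The full strain name is not reported here.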

Additional observations from a re-analysis of the deposited data

Results flagged for a closer look

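By limma on day 14 against day 9, the change since PBS differed between the days for Hadha and Acot13 among the 10 genes. It also differed for 10 of the 82 other list genes tested. Of all 9788 genes tested, 15.7% passed. Values are log2 changes of FPKM + 1 relative to the median gene of each comparison, so that a change between the days is not the exact difference of both changes against PBS. Hadha was at −1.24 between the days (adjusted p = 0.0440, limma), and at −0.26 on day 9 and −1.53 on day 14 against PBS. Acot13 was at 2.63 between the days (adjusted p = 0.0247, limma), and at 0.09 and 2.68 against PBS. Higher on day 14 than on day 9 were also Etfb (2.23), Scp2 (1.49) and the lipid droplet gene Plin2 (1.71). Lower were Acsl6 (−0.98), Acot8 (−0.68), Acox3 (−1.47), Esrra (−1.26) and Srebf1 (−1.86). The fatty acid transporter Slc27a4 (−1.66, adjusted p = 0.0234 by limma) and the citrate lyase Acly (−1.06, adjusted p = 0.0451 by limma) were lower than on day 9 but did not pass against PBS. The Acly call was lost under median-of-ratios scaling (adjusted p = 0.0576), quantile normalization (0.0569), the replicate block (0.0636) and removal of the length and GC trend (0.213, all limma). That of Acot8 was lost under median-of-ratios scaling (0.105), quantile normalization (0.0604), removal of that trend (0.0514) and without ADR_D9 replicate 3 and ADR_D14 replicate 1 (0.124), and that of Scp2 in this last fit (0.0553) and with the trend removed (0.0642, all adjusted p by limma). Etfb and Acsl6 were lost under quantile normalization (adjusted p = 0.0505 and 0.0709, limma) and with the trend removed (0.0720 and 0.0976), and Acox3 (0.0825) and Slc27a4 (0.110) with the trend removed. Groups of 3 are too small for a test of single outlying libraries.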

How the results depend on the processing

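No gene of the 10 passed on day 9 under any alternative. On day 14 against PBS, where 3 passed, 0 passed with no filter on low values, with only the groups compared, with the term for Y-linked transcripts and with the length and GC trend removed, and 0 to 4 with 1 library left out, the count of 0 arising without PBS replicate 2 or PBS replicate 3. In these fits the share of all genes that passed also fell from 17.1%: to 5.23% with no filter, 4.80% with only the groups compared, 5.98% with the trend removed, 1.53% without PBS replicate 3, and 0% with the Y-linked term and without PBS replicate 2, where no gene of any kind passed limma (2282 and 2349 genes had an unadjusted p under 0.05). Without ADR_D14 replicate 3, Hadhb passed too (1.45, adjusted p = 0.0316 by limma). On day 14 against day 9, where 2 passed, 0 passed with no filter, with only the groups compared and with the length and GC trend removed, and 1 passed under median-of-ratios scaling, quantile normalization, the Y-linked term and the replicate block, and 0 to 3 with 1 library left out, the count of 0 arising without ADR_D9 replicate 1, 2 or 3. In those fits the share of all genes that passed fell from 15.7% to 4.63% with no filter, 2.68% with only the groups compared and 4.5% with the trend removed. It was 5.08%, 6.39% and 3.89% without ADR_D9 replicate 1, 2 and 3. The cause was not tested. The labels give the replicate numbers no meaning. Deviations of same-numbered libraries from their group means correlated at −0.27 to 0.43. With groups of 3 in which single libraries stood apart, these values cannot decide whether the numbers pair the libraries. With the replicate block 2 genes passed on day 14 against PBS, Hadha being lost (adjusted p = 0.0526 by limma), as were Acsl6 (0.0536), Ppargc1b (0.0539), Esrra (0.0601), Scd2 (0.0734) and Elovl6 (0.0808) of the lists. Over the alternatives the log2 change against PBS ran from 1.86 to 3.11 for Acot13 (adjusted p 0.0121 to 0.135 by limma), from −1.84 to −1.09 for Hadha (0.0164 to 0.158) and from −1.65 to −0.91 for Cpt1a (0.0138 to 0.182). The other list genes passing on day 14 against PBS, 13 in all, ran from 0 (without PBS replicate 2, or with the Y-linked term) and 1 (without PBS replicate 3, or with only the groups compared) to 20 (threshold 0.1). At a threshold of 0.1, 27.5% of all genes passed.

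Changes of sign fell on genes that did not pass. On day 9, Acadm (0.10) and Echs1 (0.10) turned without ADR_D9 replicate 3, alone or with ADR_D14 replicate 1, and with 1 library left out they ran from −0.38 to 0.10 and from −0.22 to 0.10. Acot13 on day 9 ran from −0.07 (without PBS replicate 2) to 0.27 with 1 library left out, was at −0.00056 without ADR_D9 replicate 2 and at −0.21 with the Y-linked term. On day 14 against PBS, the length and GC trend removed gave −0.07 for Acadm and −0.18 for Acadl. Acadl ran from −0.29 (without ADR_D14 replicate 1) to 0.89 with 1 library left out and was at −0.29 without ADR_D14 replicate 1 and ADR_D9 replicate 3. Acadvl was at 0.05 with a pseudocount of 0.1, 0.01 under median-of-ratios scaling, 0.05 without PBS replicate 3, and −0.25 to 0.20 with 1 library left out. On day 14 against day 9, Cpt2 was at −0.09 without ADR_D9 replicate 3 and ADR_D14 replicate 1. Acadl was at −0.26 without both, −0.09 without ADR_D14 replicate 1 alone, up to 1.10 with another library left out and −0.03 with the length and GC trend removed. Read depth, unknown here, limits low values such as those of Ppara.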
